A study of Mus musculus with 21 samples.

Results

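Complement transcripts were examined in bulk RNA of the brains of GA-Camk2a mice and their controls. The 9 genes of interest were C1qa, C1qb, C1qc, C4b, C3, C3ar1, C5ar1, Itgam and Itgb2, taken by symbol from a table of 64361 genes. Complement is a cascade of secreted proteins in which C1q binds tagged surfaces, C4 and C3 are then cleaved and deposited on them, and phagocytes read the fragments through receptors. In the brain, microglia are the main source of C1q and carry most complement receptors, and complement takes part in the removal of synapses during development and in disease. C1qa, C1qb and C1qc encode the chains of C1q. C4b and C3 encode components that C1 activation leads to, C3ar1 and C5ar1 encode the receptors for the peptides C3a and C5a, and Itgam and Itgb2 encode the alpha and beta chains of complement receptor 3 (CR3, CD11b/CD18), which binds cleaved C3.

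GA-Camk2a mice carry a floxed transgene for GFP-tagged poly-GA, a dipeptide repeat protein of C9orf72 disease, which Camk2a-Cre switches on in excitatory neurons of the forebrain. Microglia and astrocytes are therefore not the cells in which the Cre driver acts. All mice were on a C57BL/6J background and were killed between 30 and 40 weeks of age, the transgenic mice at the humane endpoint. They came from a pair of litters, and the alleles of the control mice are not given in the sources used here. There were 5 control and 6 GA-Camk2a libraries of the cortex and 4 control and 6 GA-Camk2a libraries of the hippocampus. The study gives these control numbers with the tissues exchanged, and the labels were followed here. The 5 hippocampal markers summed to 563 to 775 CPM in the libraries labelled hippocampus and to 91.7 to 154 CPM in those labelled cortex. These 21 libraries came from 11 mice, and 10 mice gave both tissues. Libraries are named below by genotype, tissue and mouse number.

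Levels are given as CPM, the counts of a gene scaled to a common library total. Total counts per library ran from 1048201 to 5888102, so genes with few counts were measured with less precision in the shallow libraries. The row of the GFP sequence held 0 to 4 counts per library in both genotypes, so it does not check the labels. Hippocampal markers were higher in hippocampus than in cortex for 5 of 5 genes in either genotype. One library stood apart: in the hippocampus of GA-Camk2a mouse 41, neutrophil markers summed to 913 CPM, against at most 17.3 CPM in the other GA-Camk2a hippocampi, and blood markers to 5554 CPM against at most 1704 CPM. Fibroblast markers (615 CPM, next highest 228 CPM) and markers of border macrophages and monocytes (131 CPM, next highest 44.8 CPM) were also highest in that library. Choroid plexus markers varied widely among hippocampi, from 1812 to 32749 CPM in controls and from 1845 to 55563 CPM in GA-Camk2a mice. Among 5 cortical markers, Lamp5 and Tbr1 were higher in every cortex than in every hippocampus, Cux2 overlapped (26.3 to 44.0 CPM in hippocampus, 40.6 to 106 CPM in cortex) and Fezf2 overlapped with higher values in hippocampus (18.4 to 36.8 CPM, against 11.9 to 24.4 CPM). Rorb stood at 1455, 5303 and 4414 CPM in the hippocampi of control mouse 11 and GA-Camk2a mice 16 and 30, above every cortex, and at no more than 165 CPM in the other hippocampi. The hippocampal differences between genotypes on the scale of library totals are therefore also given without mouse 41. In bulk tissue, a change in the number of cells of a type and a change in the RNA per cell cannot be told apart.

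The promoters of the C1q genes and of C3 are shown because the C1q chains moved together whereas C3 varied more between mice. Sequences were those of RefSeq on GRCm38.p6, and 6 of the 9 genes matched. C1qa, C4b and Itgb2 did not match. Each window runs from 250 bases before to 50 bases after the annotated start, 5′ to 3′ on the strand of the gene, and capitals mark letters that match a motif searched on both strands. The window of C1qb is chr4:136886151-136886450, that of C1qc is chr4:136892865-136893164 and that of C3 is chr17:57228087-57228386, and all 3 genes lie on the minus strand.
C1qb: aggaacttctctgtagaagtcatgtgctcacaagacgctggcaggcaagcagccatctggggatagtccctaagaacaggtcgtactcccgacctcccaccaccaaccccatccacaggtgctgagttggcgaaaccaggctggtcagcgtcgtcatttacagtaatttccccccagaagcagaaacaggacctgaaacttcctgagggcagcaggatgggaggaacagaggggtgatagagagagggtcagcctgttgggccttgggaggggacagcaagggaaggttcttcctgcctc
C1qc: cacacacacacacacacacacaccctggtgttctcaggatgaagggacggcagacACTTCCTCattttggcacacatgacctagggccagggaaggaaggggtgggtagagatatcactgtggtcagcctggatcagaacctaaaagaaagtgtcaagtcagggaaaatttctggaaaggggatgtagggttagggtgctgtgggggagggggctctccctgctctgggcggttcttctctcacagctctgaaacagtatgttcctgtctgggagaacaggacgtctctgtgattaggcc
C3: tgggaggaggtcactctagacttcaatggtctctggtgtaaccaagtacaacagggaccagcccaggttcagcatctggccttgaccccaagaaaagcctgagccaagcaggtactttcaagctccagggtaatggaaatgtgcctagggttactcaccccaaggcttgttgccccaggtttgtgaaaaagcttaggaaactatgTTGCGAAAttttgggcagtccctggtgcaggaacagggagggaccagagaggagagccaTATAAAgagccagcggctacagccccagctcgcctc
The motifs were PU.1 (GAGGAAGT), an interferon-stimulated response element core (ISRE core, GAAANNGAA), a STAT site (GAS, TTCNNNGAA), C/EBP (TTGCNNAA), kappaB (GGGANTTTC) and the TATA box (TATAAA). C1qc held the PU.1 letters on the reverse strand, and 3.11% of 32544 promoter windows held them. C3 held the C/EBP letters, found in 10.8% of windows, and the TATA box letters, found in 13.6%, the latter just downstream of the annotated start. C1qb and Itgam held none of the 6 motifs. C3ar1 held the TATA box letters, and C5ar1 held the ISRE core letters on the reverse strand, found in 8.53% of windows. The GAS and kappaB letters, in 8.33% and 1.12% of windows, were in none of the 6 members' windows. These matches describe letters only. C1qb, C1qc and C1qa are adjacent protein-coding genes on chromosome 4, in that order and on the same strand.

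The C1q genes were higher in GA-Camk2a mice in both tissues. C1qa was measured at 73.5, 80.8, 72.2, 76.4 and 84.8 CPM in the cortex of control mice 11, 20, 31, 37 and 38. In GA-Camk2a cortex, its level ran from 238 to 413 CPM with a median of 282 CPM. All 6 GA-Camk2a cortices lay above all 5 controls. C1qa was 3.97-fold higher in cortex (log2 fold change 1.99 ± 0.13 SE, edgeR adjusted p = 1.06e-09). In the hippocampus of control mice 11, 20, 31 and 37, C1qa was at 58.1, 52.8, 59.3 and 65.7 CPM. GA-Camk2a hippocampi ranged from 118 CPM in mouse 30 to 188 CPM in mouse 34, with a median of 184 CPM. Again no GA-Camk2a library overlapped the controls, and 5 of the 6 lay close together with mouse 30 below them. The difference in hippocampus was 2.83-fold (log2 fold change 1.50 ± 0.13 SE, edgeR adjusted p = 6.69e-06).

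C1qb followed the same pattern. Its control values in cortex were 114, 112, 114, 128 and 132 CPM in the order given above, and GA-Camk2a values ran from 329 to 478 CPM with a median of 384 CPM. This was a 3.31-fold difference in cortex (log2 fold change 1.73 ± 0.11 SE, adjusted p = 1.07e-09). In control hippocampi C1qb was at 112, 93.2, 117 and 120 CPM, and in GA-Camk2a hippocampi at 206 to 371 CPM with a median of 329 CPM. The groups did not overlap in either tissue, and mouse 30 was again lowest among GA-Camk2a hippocampi. In hippocampus C1qb was 2.78-fold higher (log2 fold change 1.48 ± 0.14 SE, adjusted p = 1.77e-05). C1qc averaged 111 CPM in control cortex (SD 11.5, n = 5) and 365 CPM in GA-Camk2a cortex (SD 67.3, n = 6). Its hippocampal means were 103 CPM in control (SD 21.9, n = 4) and 316 CPM in GA-Camk2a mice (SD 62.0, n = 6). The log2 fold changes of C1qc were 1.72 (SE 0.12, adjusted p = 2.90e-09) and 1.58 (SE 0.15, adjusted p = 1.77e-05). In the hippocampus of mouse 30, where the C1q genes were lowest, the 8 pan-myeloid markers described below also summed to the lowest level of that group, 447 CPM. Choroid plexus markers summed to 49849 CPM there. They were also abundant in the hippocampus of mouse 35 (45986 CPM) and of mouse 16 (55563 CPM). Mouse 16 was highest of the group in C1qb (371 CPM) and C1qc (412 CPM). The part of choroid plexus in the C1q levels was not tested.

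**Figure D1:**
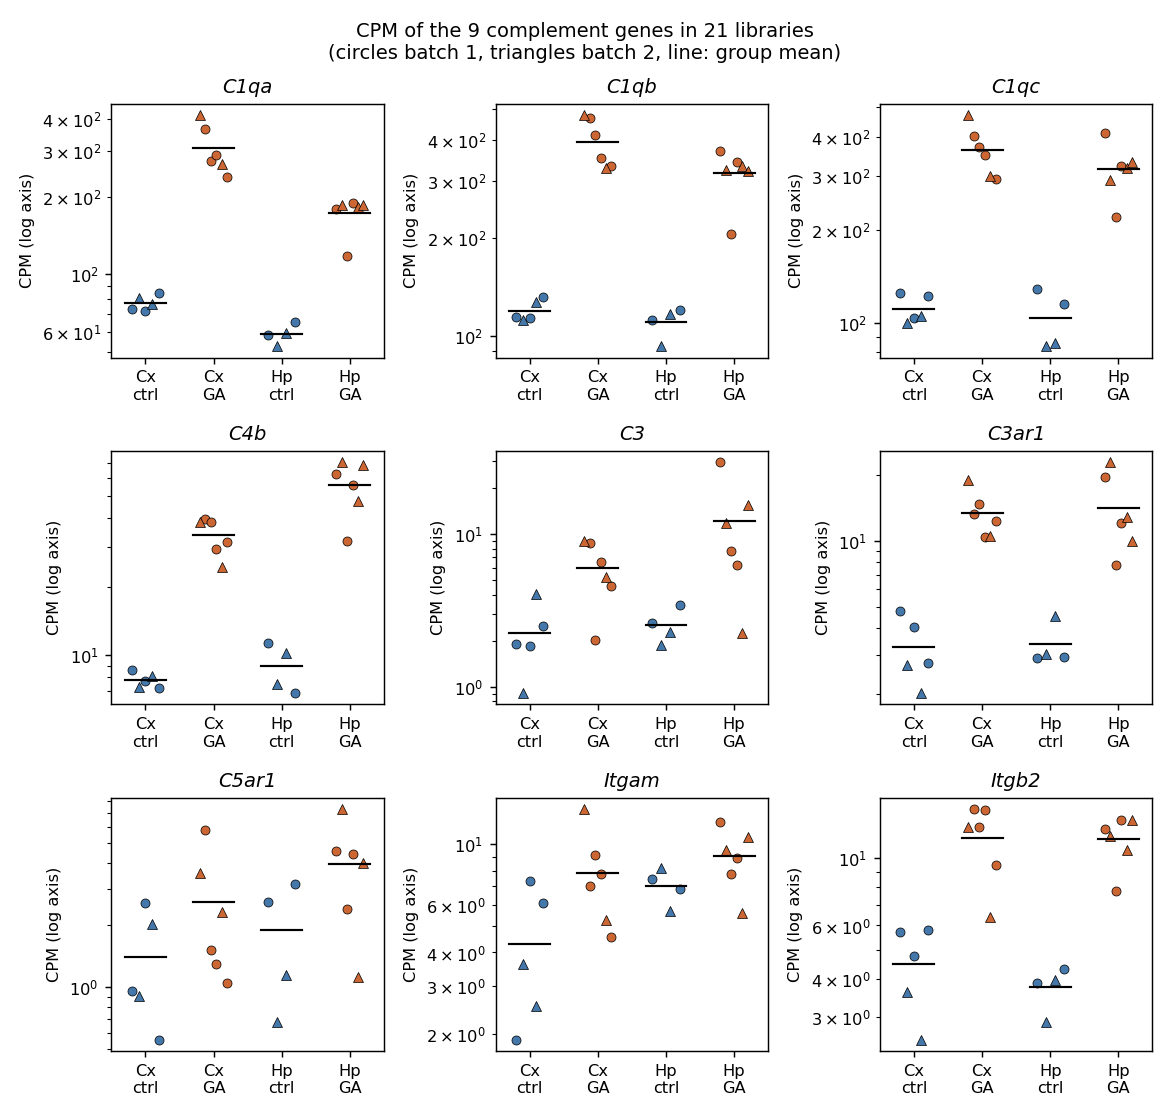
Level of each of the 9 genes in CPM (log axis) in the 21 libraries, grouped by tissue (Cx, cortex; Hp, hippocampus) and genotype (ctrl, control; GA, GA-Camk2a), with the mean of each group as a line. The C1q genes, C4b, C3ar1 and Itgb2 separate the genotypes without overlap in both tissues, whereas C3, C5ar1 and Itgam overlap.

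C4b, a component that is cleaved downstream of C1, had the largest fold change of the 9 genes in hippocampus. In control cortex C4b was at 8.59, 7.27, 7.69, 8.10 and 7.20 CPM, and in GA-Camk2a cortex at 24.5 to 39.6 CPM with a median of 34.99 CPM. Control hippocampi held 11.4, 7.47, 10.3 and 6.84 CPM, and GA-Camk2a hippocampi 31.7 to 70.5 CPM with a median of 59.1 CPM. The lowest GA-Camk2a library exceeded every control in both tissues. Differences were 4.40-fold in cortex (log2 fold change 2.14 ± 0.18 SE, adjusted p = 3.07e-08) and 6.18-fold in hippocampus (log2 fold change 2.63 ± 0.22 SE, adjusted p = 5.88e-06). C4b has a close relative, C4a, whose transcript matched 294 of the last 300 bases of the C4b transcript in the GENCODE annotation of GRCm38, so reads near the 3′ end could be assigned to either gene and both counts are uncertain. C4a itself was too low to test and was at 0.743 ± 0.728 CPM (SD, n = 5) in control and 3.42 ± 0.476 CPM (SD, n = 6) in GA-Camk2a cortex.

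C3, the central component of the cascade, was low in controls and uneven among GA-Camk2a mice. In control hippocampi C3 was at 2.60, 1.87, 2.28 and 3.42 CPM, resting on 4 to 15 counts per library. GA-Camk2a hippocampi ranged from 2.23 CPM in mouse 35, on 4 counts, to 29.4 CPM in mouse 16, on 83 counts, with a median of 9.76 CPM. The groups overlapped, because mouse 35 lay within the controls while the other 5 lay above them. C3 was 4.56-fold higher in GA-Camk2a hippocampus (log2 fold change 2.19 ± 0.52 SE, edgeR adjusted p = 0.0134). The call was lost within batch 1 (adjusted p = 0.246), within batch 2 (0.0697), without control mouse 11 (0.0523) and without control mouse 20 (0.0537), although the log2 fold change stayed between 1.63, without mouse 16, and 2.38 when single libraries were left out. In the hippocampi of mice 16 and 35, highest and lowest in C3, choroid plexus markers summed to 55563 and 45986 CPM. Rorb stood at 5303 and 103 CPM in them. The part of choroid plexus or of neighbouring tissue in the C3 levels was not tested. In cortex C3 did not pass the filter on low counts, with 0.908 to 4.05 CPM in controls and 2.03 to 8.99 CPM in GA-Camk2a mice, and 5 of 6 GA-Camk2a libraries lay above every control. Without the filter, the cortical difference in C3 was 1.27 on the log2 scale (SE 0.36, edgeR adjusted p = 0.0170). That fit gave far lower p-values than the main fit, with hippocampal C3 at an edgeR adjusted p of 3.93e-11 in place of 0.0134. Its p-value for cortical C3 is therefore not comparable with those of the main fit.

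The anaphylatoxin receptors differed from each other in how far the data reached. C3ar1 was at 4.77, 2.72, 4.03, 2.03 and 2.77 CPM in control cortex and at 10.4 to 18.9 CPM, median 12.7 CPM, in GA-Camk2a cortex. In hippocampus it was at 2.92, 3.06, 4.56 and 2.96 CPM in controls and at 7.76 to 22.8 CPM, median 12.4 CPM, in GA-Camk2a mice. There was no overlap in either tissue. C3ar1 was 4.13-fold higher in cortex (log2 fold change 2.05 ± 0.26 SE, adjusted p = 1.03e-05) and 4.17-fold higher in hippocampus (log2 fold change 2.06 ± 0.31 SE, adjusted p = 0.000633). C5ar1 was measured on 1 to 14 counts per library. Its mean in control hippocampus was 1.90 CPM (SD 1.19, n = 4) and its mean in GA-Camk2a hippocampus was 3.98 CPM (SD 2.13, n = 6). The groups overlapped, and the log2 fold change was 0.93, whose 95% interval reached from -0.03 to 1.89 (adjusted p = 0.217). A difference in C5ar1 was not detectable at this depth, and in cortex the gene fell below the filter.

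Of the chains of CR3, Itgb2 passed the test and Itgam did not, and the difference between them was not tested. Itgb2, the beta chain shared with other leukocyte integrins, was at 5.72, 3.63, 4.76, 2.53 and 5.82 CPM in control cortex and at 6.41 to 14.4 CPM, median 12.6 CPM, in GA-Camk2a cortex. It was 2.48-fold higher there (log2 fold change 1.31 ± 0.24 SE, adjusted p = 0.000830). In hippocampus Itgb2 was at 3.90, 2.89, 3.99 and 4.33 CPM in controls and at 7.76 to 13.3 CPM, median 12.1 CPM, in GA-Camk2a mice, a 2.96-fold difference (log2 fold change 1.56 ± 0.23 SE, adjusted p = 0.000424). The groups did not overlap in either tissue. Itgam, the alpha chain that defines CR3, overlapped in both. Its levels in control cortex were 1.91, 3.63, 7.33, 2.53 and 6.10 CPM, and those in GA-Camk2a cortex 4.55 to 13.5 CPM with a median of 7.41 CPM. The log2 fold change of Itgam was 0.59 in cortex (95% interval -0.07 to 1.25, adjusted p = 0.247). In hippocampus, control levels of 7.47, 8.15, 5.70 and 6.84 CPM stood beside 5.57 to 12.1 CPM, median 9.21 CPM, in GA-Camk2a mice, and the log2 fold change was 0.28 (95% interval -0.19 to 0.74, adjusted p = 0.474). Itgam overlaps Gm49368 on the same strand in the annotation, so its counts are uncertain.

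In cortex, 7 of the 9 genes passed the filter on low counts and 6 of these were higher in GA-Camk2a mice (C1qa, C1qb, C1qc, C4b, C3ar1 and Itgb2), whereas 6.35% of the 13058 genes tested were called higher. In hippocampus, 9 of 9 passed the filter and 7 were higher, the same 6 and C3, against 4.97% of 14884 genes. None was lower. C1qa, C1qb, C1qc and C4b reached the level of the filter in the controls as well. For C3, C3ar1, C5ar1 and Itgb2, and for Itgam in cortex, too few control libraries reached it. Where tested, these genes passed only through their GA-Camk2a libraries, so their calls are not separate from the filter. CPM levels did not overlap between genotypes for 6 of the 9 genes in cortex, against 3.5% of genes tested that were higher without overlap, and for the same 6 in hippocampus, against 5.6%. The median log2 fold change was 1.73 over the 7 genes tested in cortex and 1.56 over the 9 tested in hippocampus, beside medians near 0 over all genes (-0.01 and 0.02). The labels place the libraries in batches 1 and 2. The log2 fold change of C1qa was 1.92 within batch 1 and 2.10 within batch 2 for cortex, and 1.34 and 1.67, respectively, for hippocampus. That of C4b was 2.20 and 1.96 for cortex, and 2.44 and 2.81 for hippocampus. In hippocampus within batch 1, where 5 libraries were compared, the calls of C3, C3ar1 (edgeR adjusted p = 0.0915) and Itgb2 (0.131) were lost. Their log2 fold changes there were 2.21, 2.09 and 1.36. Without the hippocampus of mouse 41, the 7 hippocampal calls held. The log2 fold changes were then 1.49 for C1qa, 1.47 for C1qb, 1.55 for C1qc, 2.58 for C4b, 2.02 for C3 (adjusted p = 0.0317), 2.16 for C3ar1, 1.51 for Itgb2 and 0.22 for Itgam, and C5ar1 did not pass the filter.

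**Figure D2:**
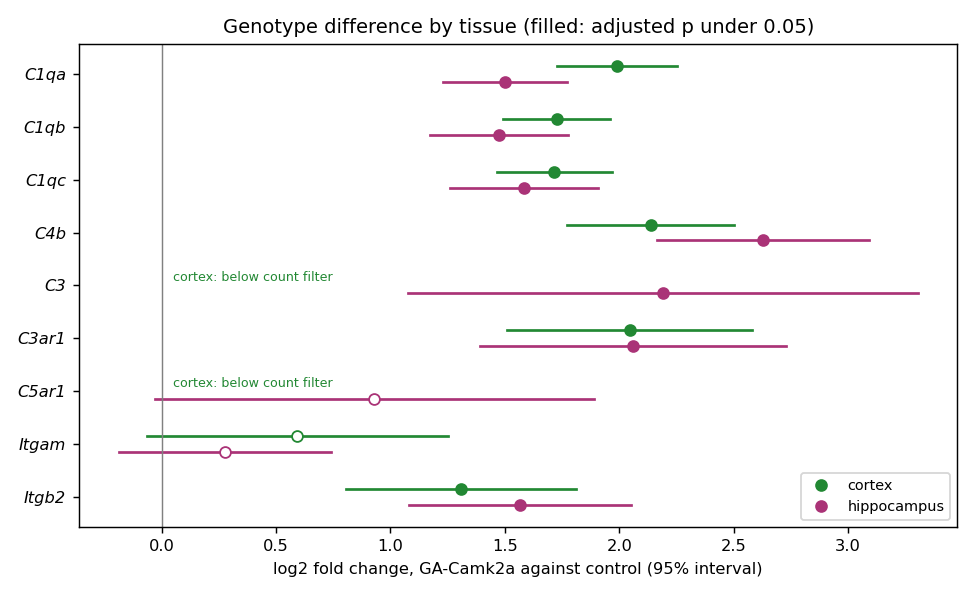
Log2 fold change of GA-Camk2a against control mice with its 95% interval, in cortex and hippocampus, for each of the 9 genes; filled points passed an adjusted p of 0.05. C4b in hippocampus lies furthest to the right (2.63), followed by C3 in hippocampus (2.19) and C4b in cortex (2.14). C3ar1 lies at 2.05 in cortex and 2.06 in hippocampus, and the intervals of Itgam and C5ar1 include 0.

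The genotype differences were compared between tissues with an interaction term over all 21 libraries. With edgeR, 0 of the 8 genes tested passed, where 0.4% of 14751 genes did, and DESeq2 also called 0. The lowest edgeR p of the 8 was that of C1qa, which was not called. Its difference was smaller in hippocampus by 0.51 on the log2 scale (95% interval -0.89 to -0.12, unadjusted p = 0.0118, adjusted p = 0.318). The interaction was 0.46 for C4b (95% interval -0.16 to 1.08, adjusted p = 0.649) and 0.91 for C3 (95% interval -0.69 to 2.51, adjusted p = 0.755). The C3 value fell to 0.32 without the hippocampus of mouse 16 and to 0.56 without the cortex of control mouse 37.

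Between tissues of the same genotype, C1qa was lower in hippocampus than in cortex. This held in 4 of 4 control mice and in 6 of 6 GA-Camk2a mice that gave both tissues. The log2 difference was -0.44 ± 0.11 (SE, adjusted p = 0.00998) in controls, in whom 1 of 6 genes tested was called against 16.3% of 14435 genes. It was -0.95 ± 0.13 (SE, adjusted p = 3.22e-05) in GA-Camk2a mice, in whom 3 of 8 were called against 33.2% of 13098 genes. The other calls in GA-Camk2a mice were C1qb, lower in hippocampus (-0.43 ± 0.13 SE, adjusted p = 0.0170), and C4b, higher in hippocampus (0.60 ± 0.17 SE, adjusted p = 0.0123). C4b was higher in hippocampus in 5 of 6 GA-Camk2a mice, mouse 30 being the exception. With mouse as a block, C1qc was called as well (-0.30 ± 0.10 SE, adjusted p = 0.0400). The call of C1qa in controls was lost without the hippocampus of control mouse 20 (adjusted p = 0.0540), that of C1qb in GA-Camk2a mice without the cortex of mouse 16 (0.0628) and that of C4b without the cortex of mouse 35 (0.0549).

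**Figure D3:**
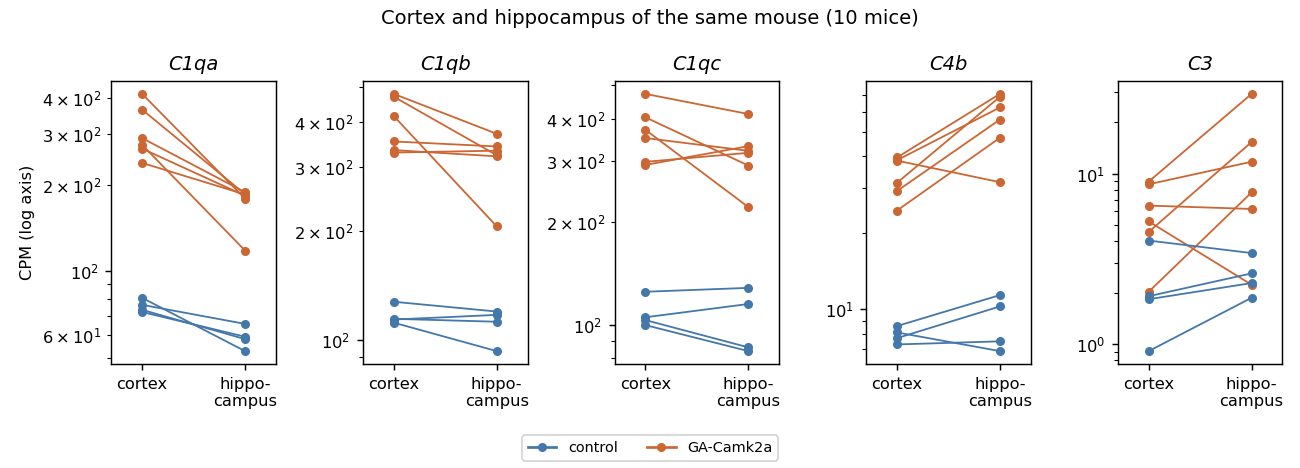
Levels of C1qa, C1qb, C1qc, C4b and C3 in CPM (log axis) in cortex and hippocampus of the same mouse, each line 1 of 10 mice coloured by genotype. C1qa falls from cortex to hippocampus in all 10 mice, and C4b rises in 5 of 6 GA-Camk2a mice.

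Ratios between the chains of C1q were taken within each library. The log2 ratio of C1qb to C1qc counts averaged between 0.00 and 0.12 in the 4 groups. It spread most in control hippocampus, from -0.19 to 0.45. The ratio of C1qa to C1qb set the tissues apart, from -0.74 to -0.46 in control cortex and from -0.98 to -0.82 in control hippocampus, without overlap. In GA-Camk2a mice it ran from -0.60 to -0.21 in cortex and from -1.05 to -0.80 in hippocampus. In hippocampus the log2 ratio of C4b to C1qb went from -3.63 ± 0.35 (SD, n = 4) in control to -2.52 ± 0.25 (SD, n = 6) in GA-Camk2a hippocampus, without overlap. In cortex that ratio overlapped, from -4.17 to -3.66 in controls and from -3.73 to -3.40 in GA-Camk2a mice. The log2 ratio of Itgb2 to Itgam overlapped in cortex, from -0.60 to 1.38 in controls and from -0.10 to 1.03 in GA-Camk2a mice, whereas in hippocampus it ran from -1.47 to -0.49 and from 0.00 to 0.89. The ratio of C3 to C4b spread over a wide range in GA-Camk2a hippocampus, from -4.25 to -1.08, whereas that of C4b to C1qb ran from -2.81 to -2.19. These ratios are descriptions and were not tested.

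Markers of microglia moved with the complement genes. The 8 pan-myeloid markers (among them Csf1r, Aif1, Laptm5, Ly86, Ctss, Fcer1g and Cd53) were all higher in GA-Camk2a mice in both tissues. Their summed level rose from 218 to 255 CPM in control cortex to 579 to 917 CPM in GA-Camk2a cortex and from 213 to 274 CPM to 447 to 742 CPM in hippocampus. Of 10 markers of homeostatic microglia, 6 were higher in cortex and 2 in hippocampus, and summed levels were 146 to 156 CPM and 177 to 253 CPM in control and GA-Camk2a cortex. In hippocampus they were 148 to 171 CPM and 168 to 252 CPM. Among markers of astrocytes, 4 of 8 were higher in cortex and 5 of 8 in hippocampus, with Gfap averaging 257 CPM in control cortex (SD 78.0, n = 5) and 1225 CPM in GA-Camk2a cortex (SD 314, n = 6). Oligodendrocyte markers were higher for 2 of 8 genes in cortex and 1 of 8 in hippocampus, with median log2 fold changes of 0.21 and 0.18. Markers of excitatory neurons were lower, 5 of 6 in cortex and 4 of 6 in hippocampus, with median log2 fold changes of -0.76 and -0.87. Of the markers of border macrophages and monocytes that could be tested, 1 of 1 was higher in cortex and 2 of 3 in hippocampus, and of the blood markers 3 of 4 in cortex and none of 4 in hippocampus. The part of these cells in the complement differences was not tested.

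The complement genes were then set against the summed counts of the 8 pan-myeloid markers in the same library. On this scale, the median over all genes shifted to -1.57 for cortex and to -1.31 for hippocampus. Of all genes tested, 98.7% were called in cortex and 95.5% in hippocampus, nearly all lower, so that adjustment for multiple testing barely changed the p-values. C1qb and C1qc did not pass this test in either tissue. The log2 differences of C1qb were 0.13 in cortex (95% interval -0.23 to 0.48) and 0.12 in hippocampus (-0.24 to 0.47). Those of C1qc were 0.12 (-0.24 to 0.47) and 0.23 (-0.13 to 0.59). This depended on the markers chosen. Scaled to the 10 homeostatic markers instead, C1qb was higher by 1.18 in cortex and 1.14 in hippocampus. C1qc was higher by 1.17 and 1.26 on that scale (edgeR adjusted p of 8.04e-05 or less for both genes). C4b rose beyond the pan-myeloid markers in hippocampus (1.25 ± 0.22 SE, adjusted p = 2.26e-06). Its ratio to them was higher there without overlap between genotypes, as for 0.155% of genes tested. The study reports C4b as a marker of disease-associated oligodendrocytes that rose in oligodendrocyte clusters of another poly-GA line. In bulk RNA of GA-Camk2a mice, the study also reports that the signature of such oligodendrocytes was induced. The cells that express C4b were not resolved here, so its ratio to microglia markers is not a level per microglial cell. In cortex the C4b ratio did not overlap either, as for 0.0919% of genes, and the difference was smaller (0.54 ± 0.25 SE, adjusted p = 0.0297), and the cortex call was lost without control mouse 31 (adjusted p = 0.0626), control mouse 38 (0.118) or GA-Camk2a mouse 30 (0.0560). C1qa exceeded the markers in cortex, also without overlap (0.39 ± 0.18 SE, adjusted p = 0.0353), but the call was lost when any of the 5 controls or GA-Camk2a mouse 34 was left out (adjusted p = 0.0523 to 0.0803).

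Itgam, like nearly all genes, lagged behind the markers. Relative to them, it was lower by 0.94 on the log2 scale in cortex (SE 0.32, adjusted p = 0.00389) and by 1.06 in hippocampus (SE 0.27, adjusted p = 0.000420). The median over all genes was lower still, at -1.57 and -1.31. All 6 GA-Camk2a hippocampi had a lower Itgam ratio than all 4 controls, and 79.6% of genes tested were lower without overlap in the same way. The cortex call was lost without control mouse 31 (adjusted p = 0.0732), and scaled to the 10 homeostatic markers instead, Itgam differed by 0.042 in cortex and by -0.05 in hippocampus. C3ar1 exceeded the pan-myeloid markers in hippocampus (0.68 ± 0.31 SE, adjusted p = 0.0330), a call that was lost in 5 of 10 fits with 1 library left out, whereas C3 did not pass (0.80 ± 0.40 SE, adjusted p = 0.0540). The C3 value fell to 0.39 without GA-Camk2a mouse 16, and C3 passed without mouse 34 (1.00, adjusted p = 0.00576) or mouse 35 (1.00, adjusted p = 0.00976). Itgb2 stayed close to the markers, at -0.24 in cortex (95% interval -0.86 to 0.37) and 0.21 in hippocampus (-0.37 to 0.80). Altogether 2 of 7 genes were called higher in cortex and 2 of 9 in hippocampus, against 0.245% and 0.329% of all genes, and 1 lower in each tissue, against 98.5% and 95.2%. With the homeostatic list as the scale, 6 genes in cortex and 7 in hippocampus were called, all higher, against 1.3% and 1.75% of all genes called higher. The median over all genes on that scale was -0.55 in cortex and -0.30 in hippocampus.

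**Figure D4:**
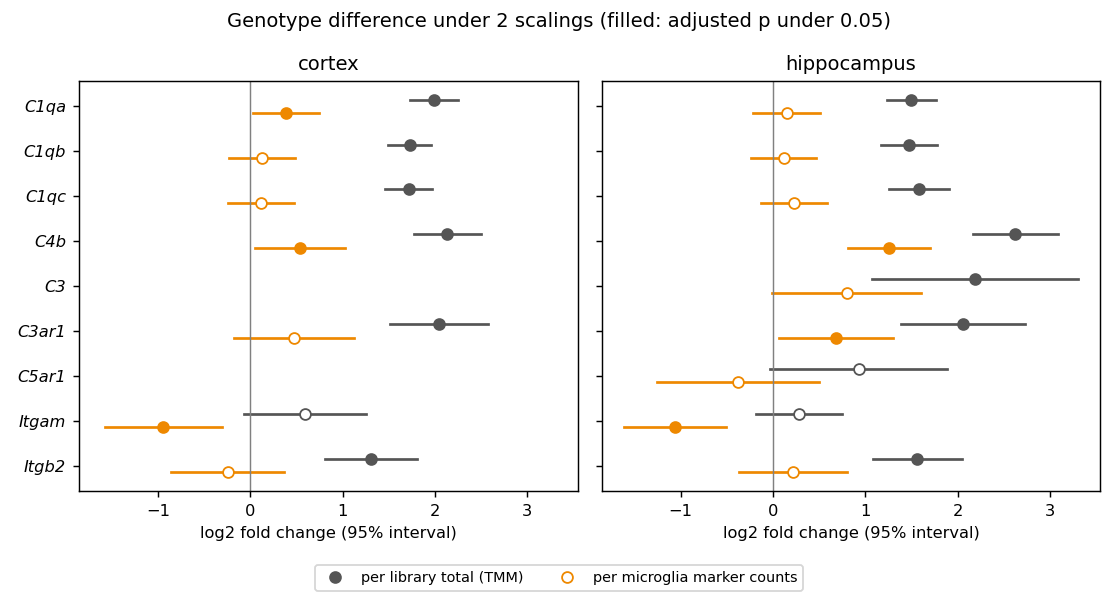
Log2 fold change of GA-Camk2a against control mice with its 95% interval when libraries were scaled to their totals (grey) and to the counts of 8 pan-myeloid microglia markers (orange); filled points passed an adjusted p of 0.05. C1qb, C1qc and Itgb2 move close to 0 on the second scale, whereas C1qa in cortex stays at 0.39 and C4b in hippocampus at 1.25. Itgam falls to -0.94 and -1.06, where the median over all genes is -1.57 in cortex and -1.31 in hippocampus.

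The rest of the complement system was covered by a list of 48 further genes, of which 15 passed the filter in cortex and 21 in hippocampus. In cortex, 4 were higher and none lower, where 6.35% of all genes tested were called higher and 6.17% lower. In hippocampus, 5 were higher and 1 lower, where the shares were 4.97% and 5.97%. The median log2 fold change was 0.38 in cortex and 0.30 in hippocampus. Serping1, which encodes the C1 inhibitor, averaged 12.4 CPM in control cortex (SD 1.91, n = 5) and 34.5 CPM in GA-Camk2a cortex (SD 2.00, n = 6). It was higher by 1.49 ± 0.15 (SE, adjusted p = 5.25e-07) and 1.42 ± 0.22 (SE, adjusted p = 0.000706) on the log2 scale in cortex and hippocampus. Clu, encoding clusterin, an inhibitor of the terminal complex, rose by 1.00 ± 0.10 (SE, adjusted p = 8.69e-07) and 0.97 ± 0.09 (SE, adjusted p = 1.57e-05). Vtn, encoding vitronectin, which also restrains the terminal complex, rose by 0.80 (adjusted p = 0.000171) and 0.46 (adjusted p = 0.0471).

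Among receptors on that list, Itgax, the alpha chain of complement receptor 4, which pairs with Itgb2, was at 0.550 ± 0.223 CPM (SD, n = 4) in control and 6.23 ± 1.14 CPM (SD, n = 6) in GA-Camk2a hippocampus (log2 fold change 3.25 ± 0.35 SE, adjusted p = 3.78e-05). No control hippocampus reached the level of the filter, so Itgax was tested only through its GA-Camk2a libraries. Its fold change rests on 1 to 5 counts per control library. In cortex Itgax was below the filter, at 0.760 ± 0.856 CPM (SD, n = 5) and 5.79 ± 2.34 CPM (SD, n = 6). C1qbp, which encodes a mitochondrial protein first isolated as a binder of C1q, rose in cortex (0.36 ± 0.11 SE, adjusted p = 0.0312). Susd4, encoding a membrane inhibitor of complement, was lower in hippocampus (-0.35 ± 0.10 SE, adjusted p = 0.0355). The C1 proteases, the terminal components, Cfb and Cfd did not pass the filter in either tissue, and no difference in them could be tested at this depth.

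**Figure D5:**
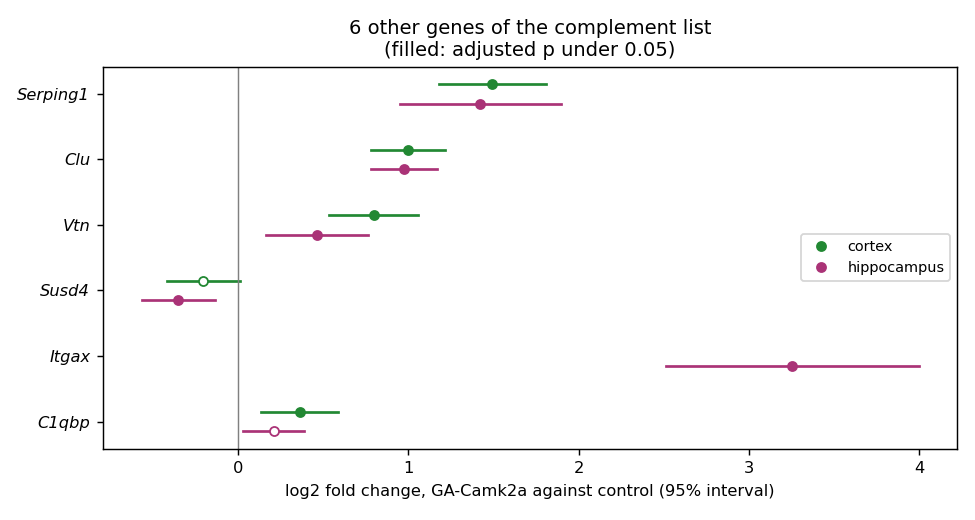
Log2 fold change of GA-Camk2a against control mice with its 95% interval for the 6 genes of the complement list described here, where they passed the filter on low counts; filled points passed an adjusted p of 0.05. Serping1 and Clu lie near 1 or above in both tissues. Itgax reaches 3.25 in hippocampus, where it passed the filter only through the GA-Camk2a libraries. Susd4 lies below 0 in both tissues and passed the test in hippocampus (-0.35).

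The genes whose levels ran most alike with each component over the 21 libraries were ranked by the SD of the log2 ratio of levels, among 8636 genes with an average log2 CPM of at least 4. Tyrobp, a signalling adaptor of myeloid receptors, ran closest to the summed C1q counts (SD 0.140), followed by Ctss (0.184) and Fcer1g (0.196), which are both on the pan-myeloid list. The median over all genes was 0.930. For C4b, the closest were Gfap, an intermediate filament of astrocytes (0.317), Vim (0.388) and H2-K1 (0.457), beside a median of 1.28. C3 ran close to no gene, its nearest being Serping1 (0.716), Lgals3bp (0.725) and A2m (0.732), beside a median of 1.17. It had 1 to 9 counts per library in control cortex and 4 to 15 in control hippocampus. Counts this low by themselves spread the ratio of C3 to any gene. Itgb2 was nearest to Cyba, a subunit of the phagocyte oxidase (0.275), Ctsh (0.313) and Laptm5 (0.346), beside a median of 0.856. All libraries share the contrast of genotypes, which adds to these likenesses.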

How the data were processed

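Whole-number counts per gene from 21 prime-seq libraries, which tag the 3′ end of transcripts, were used as deposited. Per the labels and the study's methods, the authors demultiplexed the reads and ran zUMIs with STAR on mm39 with a GFP sequence added; FastQC 0.11.8 and cutadapt 1.12 are named in the submitters' processing notes. Whether reads or molecular identifiers were counted, the annotation release and the use of strand are not given in the sources used here. No GRCm39 genome was used here, so sequences are on GRCm38. Symbols were matched by gene identifier for 43308 of 64361 rows.

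CPM are counts scaled to a common library total. Differences were tested with edgeR 4.0.16 (R 4.3.3, quasi-likelihood F-test, TMM, filterByExpr with a minimum count of 10, batch as a term) and adjusted by Benjamini-Hochberg over all genes tested, threshold 0.05. The study names DESeq2 without covariates, and DESeq2 1.42.0 was an alternative, as were upper quartile scaling, no filter, no batch term, counts thinned to the smallest library, single batches, single libraries left out and mouse as a block. Fits relative to microglia markers used their summed counts as library sizes. Same-numbered libraries came from the same mouse, and the correlation of their deviations was -0.23 to 0.29 over 10 mice. Replicate libraries differed beyond sampling noise in all 46 pairs (chi-square over degrees of freedom 2.10 to 15.1). The tests were first tried on simulated counts.

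All 9 genes were described. The genes, marker lists and tests were chosen with earlier results of these data known. Of the complement list, genes past the threshold were named, except 1 not reported here. Of genes running alike, the nearest 3 were named.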

Additional observations from a re-analysis of the deposited data

Results flagged for a closer look

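Each gene was examined in each of the 4 groups for a library far from the rest of its group, 36 groups of 4 to 6 libraries in all, and 3 such values were found in 2 libraries, where chance gives about 1 in 20 groups. C1qa and C1qb, found in the same library, run together and are not separate cases. C1qa in the hippocampus of GA-Camk2a mouse 30 was at 118 CPM, on 395 counts, and the next lowest library of the group was at 179 CPM. C1qb in the same library was at 206 CPM, and the next lowest was at 322 CPM. Without this library, the log2 fold changes of C1qa and C1qb in hippocampus were 1.60 and 1.58. C3ar1 in the hippocampus of control mouse 31 was at 4.56 CPM, on 8 counts, and the next highest control was at 3.06 CPM.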

How the results depend on the processing

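Over 120 repeats of the 7 comparisons under other settings, the number of complement genes called stayed within 1.5 times the main number in 112. The exceptions were the hippocampal genotype difference within batch 1 (4 genes called in place of 7), the control tissues without the filter on low counts (0 in place of 1), the GA-Camk2a tissues without the filter (5 in place of 3), and the fits scaled to the homeostatic microglia list (6 in cortex and 7 in hippocampus, each in place of 3). Apart from the homeostatic scale, the shares of all genes called under these settings are not given here. A lost call may therefore not be particular to these genes. With single libraries left out, 0 to 1 gene was called between control tissues (0 without the hippocampus of control mouse 20) and 0 to 3 in cortex relative to pan-myeloid markers (0 without control mouse 31, 1 without control mouse 38). Of 908 values of single genes, 26 lost a call and 16 gained one without a change of sign (20 and 5 of these with a single library left out), 25 reversed in sign, and 1 of them was called, the log2 difference of Itgb2 in cortex scaled to the homeostatic list, at 0.75. On that scale Itgam in cortex was at 0.042 and C5ar1 in hippocampus at 0.61. The interaction was 0.0068 for C3ar1 with DESeq2, and with single libraries left out it ranged from -0.20 to 0.17 for C3ar1 and from -0.25 to 0.0049 for C1qc. Between control tissues, C1qb was at 0.00014 with thinned counts, and C4b ranged from -0.056 to 0.30 with single libraries left out. Between GA-Camk2a tissues, C3ar1 ranged from -0.28 to 0.14 and Itgb2 from -0.25 to 0.068, and C5ar1 in hippocampus relative to pan-myeloid markers from -0.67 to 0.061. The cause of these changes was not tested.

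With mouse as a block, the pairing of tissues changed 1 call, that of C1qc between GA-Camk2a tissues (4 genes called in place of 3), and turned the interaction of Itgb2 to -0.022, and it changed no other call (0 genes for the interaction, 1 between control tissues). No paired analysis was possible for the genotype differences because each mouse has 1 genotype. C3 and C5ar1 rest on few counts, which limits what could be detected.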
